A study of Mus musculus with 30 samples.

Results

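Matrix metalloproteases (MMP), the membrane-bound ADAM proteases, the secreted ADAMTS proteases and their tissue inhibitors (TIMP) were followed in bulk RNA from 30 mammary tumors of MMTV-PyMT mice. The members were all rows of the count table whose symbol names an Mmp, Adam, Adamts or Timp gene, which gave 79 of 21841 genes (23 MMP, 33 ADAM, 19 ADAMTS and 4 TIMP). Of these, 47 had 10 or more counts in 5 or more libraries (16 MMP, 12 ADAM, 16 ADAMTS and 3 TIMP), and all 47 also passed the filter on low counts and were among the 13663 genes tested.

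The tumors grew in FVB/N-Tg(MMTV-PyVT)634Mul/J animals, in which the mouse mammary tumor virus promoter drives the polyoma middle T oncogene in mammary epithelium. The labels give their genotype as WT, and every mouse in all groups carried the transgene. There were 6 groups of 5 mice: vehicle, 5-fluorouracil (5-FU, 40 mg/kg every 4 days), gemcitabine (64 mg/kg every 7 days), the heme oxygenase-1 inhibitor KCL-HO-1i (25 µmol/kg daily), and KCL-HO-1i at the same dose with gemcitabine (KCL-HO-1i/gemcitabine) or with 5-FU (KCL-HO-1i/5-FU). The labels state 72 h of treatment, whereas the methods of the study state less time and less gemcitabine, and which applied to these tumors could not be settled. The ages of the mice are not given in the sources used here. The study asked how blocking heme oxygenase-1, an enzyme of perivascular macrophages, alters tumors under chemotherapy.

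MMPs cut collagens, basement membrane and other matrix proteins, and most are made as inactive proforms. ADAMs release the outer parts of membrane proteins such as growth factor precursors, while ADAMTS enzymes trim proteoglycans and mature procollagens. TIMPs bind the active site of these enzymes, and in carcinomas many secreted MMPs are made by stromal cells rather than by the tumor epithelium.

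Libraries held 10067577 to 13622264 counts. Summed levels of 7 luminal epithelial markers (Epcam, Krt8, Krt18 and others) lay between 2364 and 5686 CPM (counts per 1000000 counts of a library after scaling) in every library, so the labelled breast tissue carried its epithelial markers. KCL-HO-1i/5-FU replicate 3 held the highest level of many members and of the summed fibroblast markers in its group (6897 CPM). The same was true of replicate 2 among the tumors given KCL-HO-1i/gemcitabine (13390 CPM). Both libraries, together with KCL-HO-1i replicates 2 and 3, carry the same number code (70) in their labels, and all 4 libraries of that code are in groups that received KCL-HO-1i. Several results that rest on them are given with and without them. In bulk tissue, fewer cells of a type and less RNA per cell cannot be told apart.

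A total of 10 MMP genes lie in a cluster on chromosome 9, and 5 of them were expressed here above the count rule (Mmp13, Mmp12, Mmp3, Mmp10 and Mmp8). The stretches just upstream of the annotated starts of 3 of these genes are shown because the same pair of short motifs occurs in each. The sequences are from RefSeq, build GRCm38.p6, plus strand, each 90 bases long and ending at the base before the start. Capitals mark the AP-1 motif TGAGTCA or its reverse complement TGACTCA, and the TATA motif TATAAA.
Mmp13, chr9:7272424-7272513: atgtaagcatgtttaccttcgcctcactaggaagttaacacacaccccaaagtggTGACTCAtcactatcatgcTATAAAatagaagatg
Mmp3, chr9:7445732-7445821: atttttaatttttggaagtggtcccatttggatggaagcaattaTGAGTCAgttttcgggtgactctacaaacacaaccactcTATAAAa
Mmp10, chr9:7502252-7502341: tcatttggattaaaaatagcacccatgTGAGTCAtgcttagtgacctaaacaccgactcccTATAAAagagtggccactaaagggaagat

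A promoter window from 250 bases before to 50 after the start was found for 30 of the 47 members. The AP-1 motif, searched on both strands, was present for 5 of these 30 genes: Mmp13 at position -35, Mmp12 at -44 in 1 of its windows, Mmp3 at -46, Mmp10 at -63 and Adam19 at -131. Over all 27025 genes with a window, 5.95% had it. Both motifs together, with TATAAA on the gene strand within the 45 bases before the start and no overlap between the motifs, were found for 3 of the 30 members (Mmp3, Mmp10 and Mmp13) and for 0.311% of all genes. These matches are letters in a window, and no binding was measured.

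Levels were compared between members as the median CPM over the 30 libraries per kilobase of merged exon. Timp2, which inhibits MMPs and takes part in the activation of MMP2, had the highest level at 52.1 CPM per kb. The sheddase Adam10 followed at 41.2, the membrane-bound Mmp15 at 40.7 and Adam9 at 29.3 CPM per kb. Mmp14, the membrane-bound collagenase that activates pro-MMP2, was at 15.9, the TNF-releasing sheddase Adam17 at 14.5, the gelatinase Mmp2 at 12.9 and the inhibitor Timp1 at 12.4 CPM per kb. The stromelysin Mmp3 was at 4.08, the collagenase Mmp13 at 2.43, the macrophage elastase Mmp12 at 1.28 and the gelatinase Mmp9 at 0.423 CPM per kb. The lowest reported member was Adam22, an ADAM without a catalytic site, at 0.0439 CPM per kb.

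**Figure D1:**
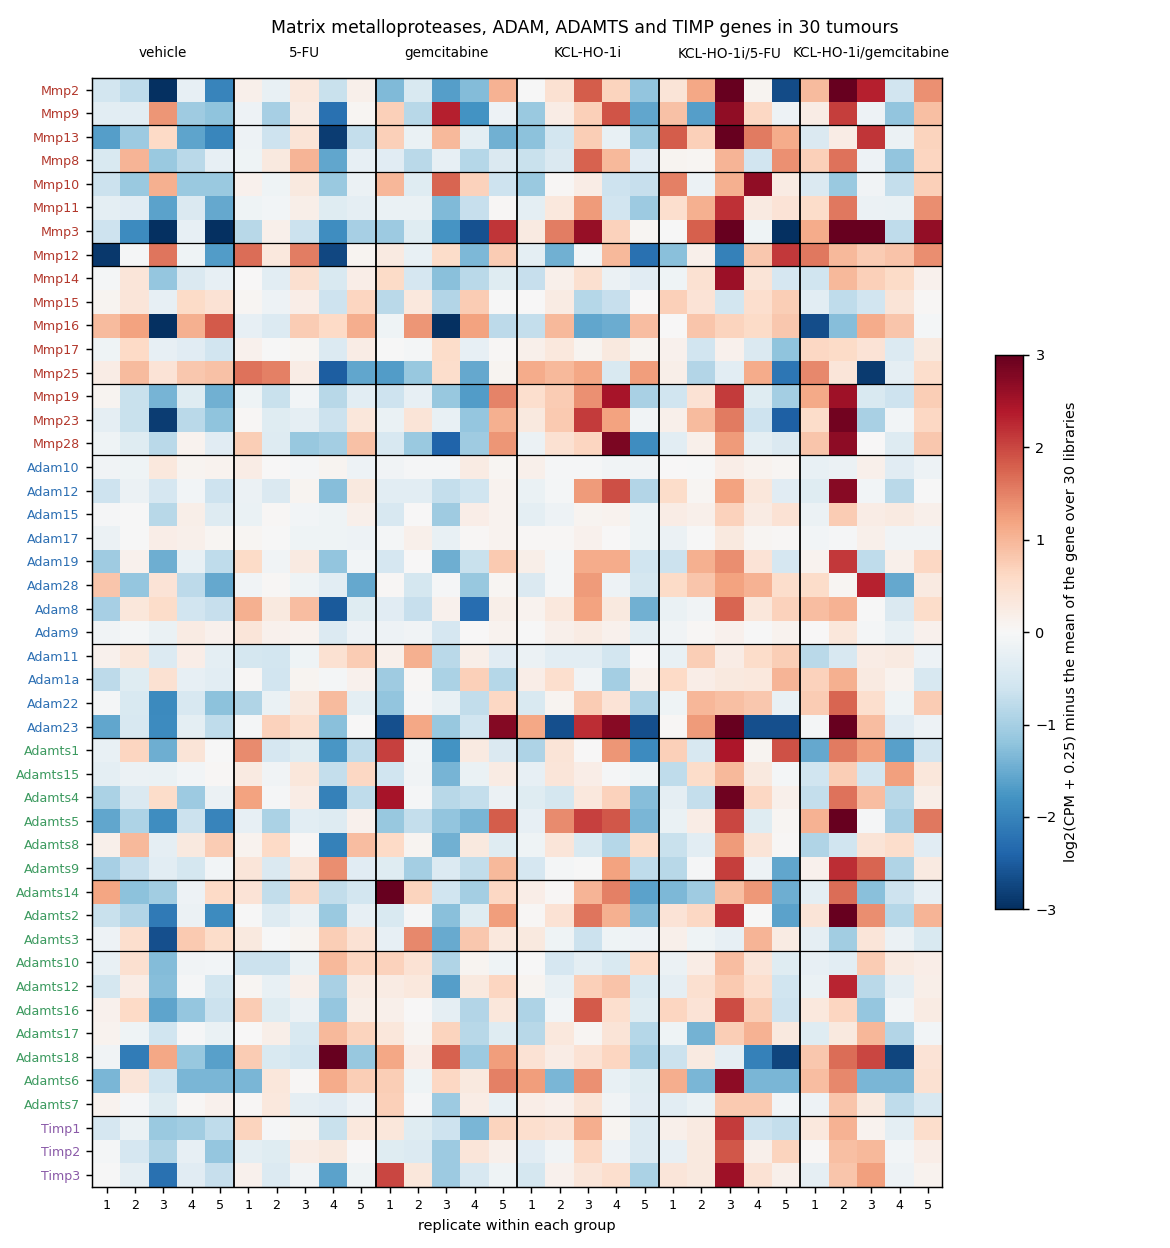
The heat map shows each of the 47 members (rows, grouped by role) in each of the 30 libraries (columns, grouped by treatment) as log2(CPM + 0.25) minus the mean of the gene over all libraries; colors are limited at 3 log2 units in either direction and gene names are colored by family. Replicate 3 of KCL-HO-1i/5-FU and replicate 2 of the gemcitabine combination are red over many rows, while the rows of Adam10, Adam17 and Adam9 are nearly white.

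The remaining 32 members were under the count rule, and 13 of them had no count in any library. They included Mmp7 (matrilysin), which reached 309 counts (27.2 CPM) in vehicle replicate 3, 58 counts in the library with the next highest count, and 10 or more in only 3 libraries. Timp4 reached 94 counts in KCL-HO-1i/gemcitabine replicate 2 and 10 or more in 4 libraries, and Adam33 reached 41.4 counts in that same library and 10 or more in only 1. The interstitial collagenase genes Mmp1a and Mmp1b had at most 2 counts in a library, and Adamts13, which cuts von Willebrand factor, at most 4. A count of 0 allows up to 3 counts, or 0.215 to 0.302 CPM depending on the library, which covers counting error only. Just inside the rule lay Mmp10, with 10 or more counts in 6 libraries, and Adamts16, in 7; just outside lay Timp4 in 4, and Adamts19 and Mmp7 in 3 each.

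KCL-HO-1i was first compared as its average over the vehicle, 5-FU and gemcitabine backgrounds, 15 libraries against 15. In edgeR's quasi-likelihood test, 20 of the 47 members (42.6%) were higher with an unadjusted p under 0.05 and 0 lower, against 13.7% of all tested genes higher and 9.22% lower. No member passed an adjusted p of 0.05, and 8 of all genes did (0.0586%); the smallest adjusted p of a member was 0.0525, shared by Mmp3, Mmp11, Adamts5, Mmp2 and Adamts2. At that threshold DESeq2 called 12 members and limma-voom 1. How many of all genes those methods called is not given here, so these counts have no share beside them. The median log2 difference was 0.59 over the members and 0.00 over all tested genes (-0.000690). By role, both collagenases, 2 of 3 stromelysins, 1 of 2 gelatinases, 3 of 3 other secreted or membrane MMPs (Mmp19, Mmp23 and Mmp28) and 2 of 3 inhibitors had an unadjusted p under 0.05. The same held for 1 of 5 membrane-bound MMPs, 4 of 8 ADAMs with a catalytic site, 3 of 4 other ADAMs, 1 of 6 proteoglycan-cleaving ADAMTS genes, 1 of 3 procollagen-processing ADAMTS genes and 0 of 7 other ADAMTS genes.

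**Figure D2:**
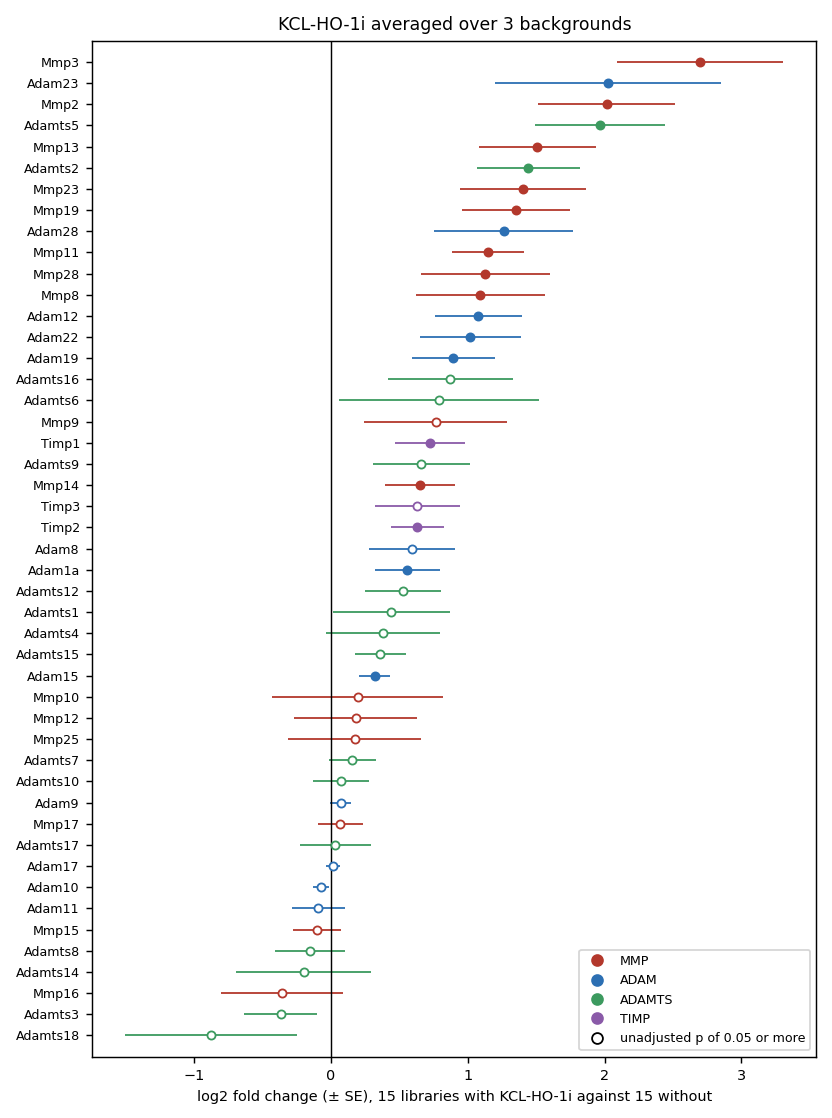
Log2 fold change (x axis) with its standard error (bars) of each of the 47 members (y axis), KCL-HO-1i averaged over 3 backgrounds, 15 libraries against 15; filled points have an unadjusted p under 0.05 and colors mark the families. All 20 filled points lie to the right of 0, from Adam15 at 0.32 to Mmp3 at 2.70, and Adamts18 has the lowest value at -0.88.

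Each library carries a number code in its labels whose meaning they do not give. There were 13 codes, 7 of them in more than 1 group, and these 7 covered 23 of the 30 libraries. Only 1 code of the vehicle group also occurred in another group. With the code as a covariate, 10 of the 47 members were higher at an unadjusted p under 0.05 in the KCL-HO-1i average and 0 lower, against 6.21% and 3.82% of all genes in that fit. In KCL-HO-1i against vehicle 0 were higher or lower, against 0.564% and 0.527%. Only 3 codes (69, 74 and 84) held libraries both with and without KCL-HO-1i, and only code 74 did so on the same chemotherapy. Within it, Mmp13 was at 4.37 CPM in 5-FU replicate 5 and at 12.3 and 22.1 in KCL-HO-1i/5-FU replicates 2 and 4. Mmp3 was at 4.08 against 30.0 and 7.65 CPM, and Mmp2 at 47.4 against 95.3 and 45.2 CPM, in the same order. With the 4 libraries of code 70 left out, an alternative added after the data were seen, the average gave 9 of 47 members (19.1%) higher at an unadjusted p under 0.05 and 0 lower, against 6.27% and 4.93% of all genes. In that fit Mmp3 was at 1.65, Mmp2 at 1.01, Adamts5 at 0.98, Mmp13 at 0.88 and Mmp11 at 0.61 on the log2 scale, and 0 members passed an adjusted p of 0.05 in edgeR.

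Among the gelatinases, Mmp2 ran at 29.2, 24.9, 1.93, 35.8 and 10.6 CPM in vehicle tumors, at 47.1, 36.5, 53.2, 27.0 and 47.4 with 5-FU, and at 16.9, 31.0, 13.4, 17.2 and 88.8 with gemcitabine. With KCL-HO-1i it was at 42.1, 58.6, 150, 67.7 and 18.6 CPM, with KCL-HO-1i/5-FU at 55.6, 95.3, 703, 45.2 and 6.42, and with KCL-HO-1i/gemcitabine at 82.8, 343, 216, 28.7 and 111. The groups overlapped in every comparison, and the KCL-HO-1i/5-FU group held both the highest library and 1 of the lowest. The average KCL-HO-1i difference was 2.01 ± 0.50 on the log2 scale (SE, edgeR adjusted p = 0.0525), and on that scale 14 of 15 treated libraries lay above the mean log2 CPM of their reference group. Without KCL-HO-1i/5-FU replicate 3 it was 1.40 with an adjusted p of 0.122 in edgeR. Mmp9, the gelatinase of neutrophils and macrophages, was low, with group means of 1.25 to 3.97 CPM and an average difference of 0.76 ± 0.52 (SE, edgeR adjusted p = 0.400).

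Mmp3 had the largest average difference of the 47 members. It was at 5.36, 2.11, 0.528, 7.04 and 0.446 CPM in vehicle tumors, at 4.60, 9.33, 5.25, 2.12 and 4.08 with 5-FU, and at 3.84, 6.51, 2.29, 1.16 and 37.8 with gemcitabine. In the KCL-HO-1i group it was at 10.3, 24.7, 53.2, 13.7 and 8.74 CPM, all above the 5 vehicle tumors. The combinations reached higher but were wider, at 8.29, 30.0, 122, 7.65 and 0.783 CPM with KCL-HO-1i/5-FU and at 18.5, 140, 79.1, 4.82 and 53.6 with KCL-HO-1i/gemcitabine, and both overlapped vehicle. The average difference was 2.70 ± 0.61 (SE, log2; edgeR adjusted p = 0.0525). Mmp11 (stromelysin-3, a stromal MMP) had a smaller but tighter difference of 1.15 ± 0.26. Its levels were 1.76 to 4.79 CPM in vehicle tumors, 7.16 to 27.8 with KCL-HO-1i/5-FU and 5.13 to 18.1 with KCL-HO-1i/gemcitabine, so that neither combination overlapped vehicle. The third stromelysin, Mmp10, was at or under 3.13 CPM in every library, and its average difference was 0.19 ± 0.63.

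Mmp13 (collagenase-3) was the 1 member that changed among the 6 groups at an adjusted p under 0.05 (edgeR adjusted p = 0.0305). That was 1 of 47 members, against 0.651% of all tested genes, and 13 members (27.7%) had an unadjusted p under 0.05 in that test, against 18.7%. Vehicle tumors were at 2.16, 3.34, 11.3, 2.29 and 1.71 CPM, 5-FU tumors at 6.61, 4.71, 9.67, 0.815 and 4.37, and gemcitabine tumors at 12.3, 6.43, 14.8, 5.98 and 2.58. KCL-HO-1i tumors were at 3.01, 4.99, 12.5, 6.27 and 3.30 CPM and KCL-HO-1i/gemcitabine tumors at 5.41, 8.65, 33.5, 6.56 and 11.8. KCL-HO-1i/5-FU tumors were at 26.5, 12.3, 191, 22.1 and 16.4 CPM, above every vehicle and every 5-FU tumor, although the lowest of them was close to the highest vehicle tumor. The difference from vehicle was 3.69 ± 0.80 on the log2 scale (SE, edgeR adjusted p = 0.0876) and that from 5-FU 3.36 ± 0.78 (edgeR adjusted p = 0.218). Without KCL-HO-1i/5-FU replicate 3 these became 2.21 (edgeR adjusted p = 0.389) and 1.88 (edgeR adjusted p = 0.490), and the call among the 6 groups was lost. It was also lost without vehicle replicate 2, without vehicle replicate 5, without the 4 libraries of code 70, in limma-voom and with the number code described above as a covariate. The test of whether the KCL-HO-1i difference depended on the chemotherapy background gave an edgeR adjusted p of 0.798 for Mmp13. In that test 3 of 47 members (6.38%) had an unadjusted p under 0.05, against 5.75% of all genes, and 0 an adjusted one by edgeR, DESeq2 or limma-voom. The neutrophil collagenase Mmp8 did not exceed 2.24 CPM in any library, and its average KCL-HO-1i difference was 1.09 ± 0.47 (edgeR adjusted p = 0.164).

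**Figure D3:**
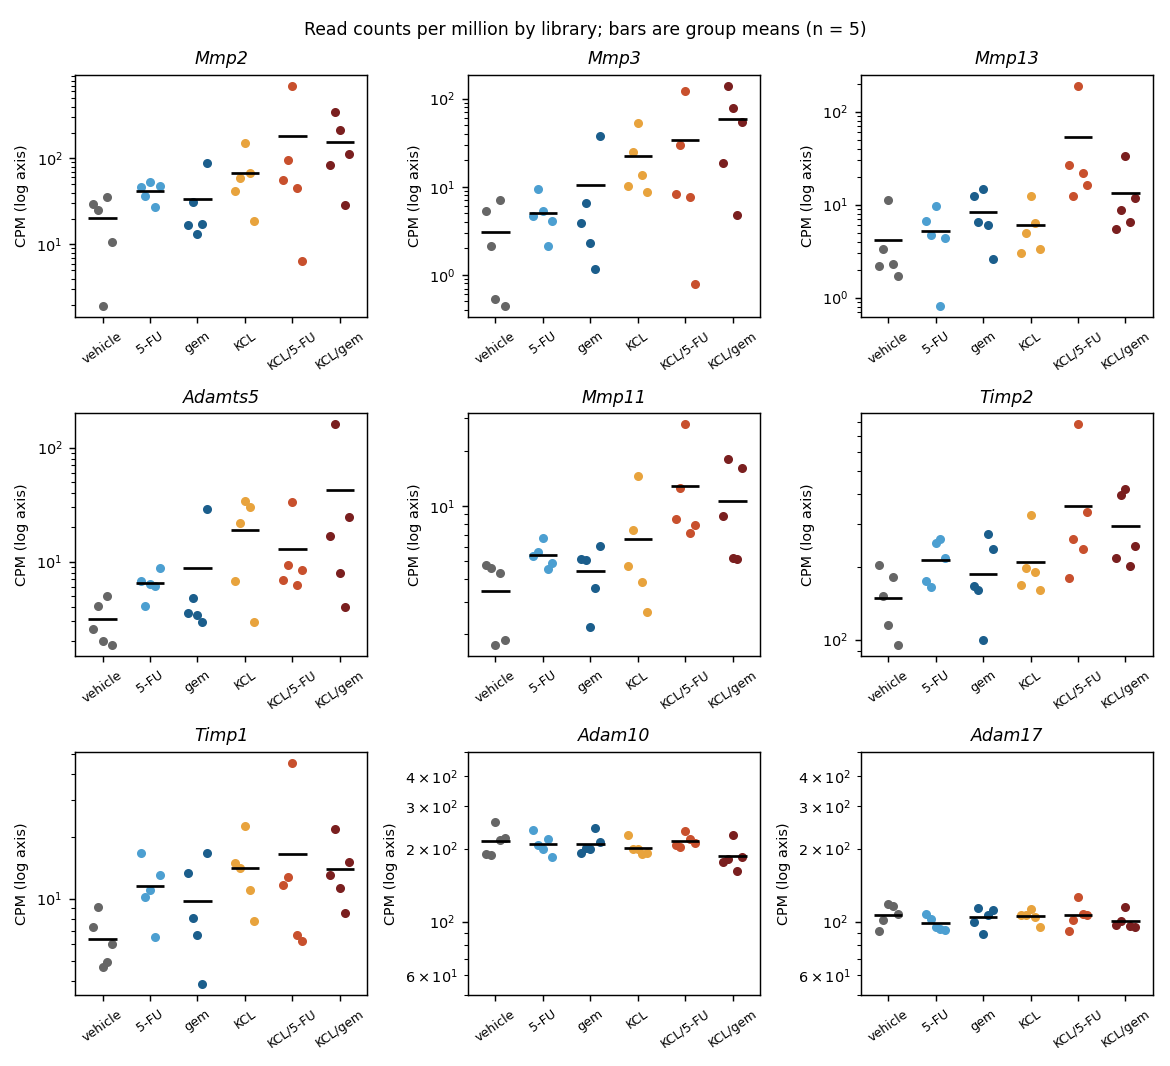
CPM on a log axis for 9 members in the 5 libraries of each group (points) with the group mean (bars); gem is gemcitabine and KCL is KCL-HO-1i. Mmp13 is highest in the KCL-HO-1i/5-FU group, Mmp3 is above all vehicle tumors in the KCL-HO-1i group, and Adam10 and Adam17 stay within 162 to 257 and 89.2 to 126 CPM over all 30 libraries.

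The membrane-bound Mmp14 had group means of 86.5 ± 31.3 CPM (SD, n = 5) in vehicle, 103 ± 27.6 with 5-FU, 80.3 ± 41.9 with gemcitabine, 97.4 ± 30.8 with KCL-HO-1i, 206 ± 220 with KCL-HO-1i/5-FU and 139 ± 51.1 with KCL-HO-1i/gemcitabine. Its average KCL-HO-1i difference of 0.65 ± 0.26 (SE, edgeR adjusted p = 0.129) was 0.34 without KCL-HO-1i/5-FU replicate 3, which alone reached 597 CPM, and then had an edgeR adjusted p of 0.339. Mmp15, a membrane-bound MMP of epithelium, stayed between 115 and 361 CPM, with an average difference of -0.10 ± 0.17. The macrophage elastase Mmp12 varied widely within groups, from 0.846 to 24.6 CPM in vehicle and from 1.76 to 35.2 with KCL-HO-1i/5-FU. Its 5 KCL-HO-1i/gemcitabine tumors, at 24.1, 15.8, 13.7, 14.6 and 21.1 CPM, lay above the 5 gemcitabine tumors at 2.95 to 13.5, while the average difference was 0.18 ± 0.45 (SE).

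Among the inhibitors, Timp1 was at 7.33, 9.08, 4.66, 4.92 and 6.02 CPM in vehicle tumors, and at 14.9, 14.1, 22.5, 11.0 and 7.84 with KCL-HO-1i. It was at 11.7, 12.7, 45.3, 6.67 and 6.26 CPM with KCL-HO-1i/5-FU and at 13.0, 21.7, 11.2, 8.52 and 15.1 with KCL-HO-1i/gemcitabine, and all 3 groups overlapped vehicle. Its average KCL-HO-1i difference was 0.72 ± 0.26 (SE, edgeR adjusted p = 0.0982). In KCL-HO-1i/5-FU against vehicle Timp1 had an edgeR unadjusted p of 0.00543, and of 0.152 without KCL-HO-1i/5-FU replicate 3. Timp2 was at 204, 152, 115, 181 and 95.2 CPM in vehicle tumors, at 181, 261, 780, 236 and 340 with KCL-HO-1i/5-FU, and at 218, 398, 419, 203 and 245 with KCL-HO-1i/gemcitabine. In the combinations with KCL-HO-1i all 10 tumors lay above the vehicle mean of 149 CPM, although both groups overlapped vehicle. The average difference of Timp2 was 0.63 ± 0.19 (edgeR adjusted p = 0.0650). Timp3, the TIMP that stays bound to matrix, was above all vehicle and all 5-FU tumors in the KCL-HO-1i/5-FU group, at 51.4 to 63.1 CPM in 4 tumors and 274 in replicate 3, against 9.67 to 45.8 in vehicle and 15.2 to 50.7 with 5-FU. Its difference from vehicle there was 1.66 ± 0.55 (edgeR adjusted p = 0.137), and 0.86 without replicate 3 (edgeR adjusted p = 0.586). Chemotherapy alone also had higher means than vehicle. Mean Timp1 was 7.21 CPM per kb in vehicle, 13.0 with 5-FU, 10.9 with gemcitabine and 15.9 with KCL-HO-1i. In the same order Timp2 was at 38.3, 54.9, 48.1 and 53.7, and Timp3 at 3.92, 4.58, 8.44 and 5.74. With KCL-HO-1i/gemcitabine Timp3 was at 7.92.

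The most abundant sheddases varied little. Adam10, which cuts Notch and cadherins, was at 190, 187, 257, 216 and 221 CPM in vehicle tumors, at 229, 199, 199, 191 and 192 with KCL-HO-1i and at 176, 181, 227, 162 and 185 with KCL-HO-1i/gemcitabine. The groups overlapped, and the standard deviation within groups was 0.144 on the log2 scale, against 1.48 for Mmp2 and 1.74 for Mmp3. The KCL-HO-1i/gemcitabine tumors differed from vehicle by -0.21 ± 0.10 (SE, edgeR adjusted p = 0.242). Adam17 had group means of 98.4 to 107 CPM and an average KCL-HO-1i difference of 0.01 ± 0.05, and Adam9 group means of 111 to 125 CPM and 0.07 ± 0.08. Among ADAMs of lower level, Adam12 and Adam19, both linked to mesenchymal cells, had average differences of 1.08 ± 0.32 and 0.90 ± 0.30. Adam12 depended on 1 tumor in the gemcitabine combination: KCL-HO-1i/gemcitabine replicate 2 was at 56.8 CPM and the other tumors of that group at 4.67 to 8.32, and the difference from vehicle was 1.39 with it and 0.08 without it (edgeR adjusted p = 0.944). Adam19 in the same comparison had an edgeR unadjusted p of 0.0134 with that tumor and 0.173 without it. Adam15 had a small average difference of 0.32 ± 0.11 with 14 of 15 treated tumors above the mean log2 CPM of their reference group. Adam8, an ADAM of myeloid cells, had an average difference of 0.59 ± 0.32 (edgeR adjusted p = 0.263). Adam1a, also among the 20, shares exons on the same strand with other annotated genes, and its counts are uncertain. Exons of Mmp12, Mmp19, Mmp28, Adam8, Adam15, Adam17, Adam19, Adamts7, Adamts8 and Adamts9 overlap a gene on the opposite strand, and whether counting used the strand is not given in the sources used here.

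Of the proteoglycan-cleaving ADAMTS genes, Adamts5, the main aggrecanase of the mouse, was at 2.54, 4.07, 2.02, 5.00 and 1.86 CPM in vehicle tumors, at 6.78, 4.06, 6.39, 6.11 and 8.74 with 5-FU, and at 3.51, 4.76, 3.39, 2.95 and 29.1 with gemcitabine. It was at 6.74, 21.9, 33.8, 29.9 and 2.97 CPM with KCL-HO-1i, at 6.93, 9.34, 33.1, 6.17 and 8.38 with KCL-HO-1i/5-FU and at 16.7, 160, 7.85, 3.99 and 24.4 with KCL-HO-1i/gemcitabine. The KCL-HO-1i/5-FU tumors were all above the vehicle tumors, while the other groups overlapped vehicle by 1 or more tumors. The average difference was 1.96 ± 0.48 (SE, edgeR adjusted p = 0.0525), and 1.40 without KCL-HO-1i/gemcitabine replicate 2. Its neighbor on chromosome 16, Adamts1, had group means of 19.9 to 49.8 CPM and an average difference of 0.44 ± 0.43, and Adamts4 one of 0.38 ± 0.42. Adamts9 had 0.66 ± 0.36 (edgeR adjusted p = 0.266). The procollagen N-proteinase Adamts2 was at 4.92 to 19.7 CPM in vehicle tumors, 8.83 to 68.1 with KCL-HO-1i, 7.20 to 102 with KCL-HO-1i/5-FU and 12.1 to 193 with KCL-HO-1i/gemcitabine, with an average difference of 1.44 ± 0.38 (edgeR adjusted p = 0.0525). Adamts12 had 0.53 ± 0.28. Without KCL-HO-1i/gemcitabine replicate 2, the edgeR unadjusted p of Adamts2 against gemcitabine went from 0.0273 to 0.318. That of Adamts12 in KCL-HO-1i/gemcitabine against vehicle went from 0.0334 to 0.800. Adamts18 was the 1 member with an unadjusted p under 0.05 after 5-FU alone, at 2.80 ± 1.13 (edgeR adjusted p = 0.999), and this rested on 5-FU replicate 4 at 35.4 CPM. The other 4 tumors of that group were at 0.519 to 2.59 CPM and vehicle tumors at 0.145 to 3.52, and without replicate 4 the difference was 0.12.

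The single comparisons share the 5 vehicle tumors, so their values are given side by side. After 5-FU alone 1 of 47 members was higher at an unadjusted p under 0.05 and 0 lower, against 1.65% and 2.24% of all genes. After gemcitabine alone 0 were higher or lower, against 2.05% and 1.78%. The median differences of the members were 0.30 and 0.33 on the log2 scale, against 0.00 (0.00110) and 0.03 over all genes. With KCL-HO-1i alone, 9 members (19.1%) were higher at an unadjusted p under 0.05 and 0 lower, against 7.36% and 2.08% of all genes. The smallest p values belonged to Adamts5 (2.62 ± 0.85), Mmp23 (2.35 ± 0.82) and Mmp19 (1.91 ± 0.70). In these 3 comparisons 0 members passed an adjusted p of 0.05 in edgeR, DESeq2 or limma-voom.

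With KCL-HO-1i/5-FU, 17 members (36.2%) were higher at an unadjusted p under 0.05 and 0 lower, against 9.79% and 7.84% of all genes. With KCL-HO-1i/gemcitabine, 17 were higher and 1, Adam10, was lower, against 11.7% and 8.04%. No member passed an adjusted p of 0.05 in edgeR in either comparison, and 0 of all tested genes did. DESeq2 called 6 and 8 members at that threshold, and limma-voom 2 and 9. The shares of all genes called by these methods are not given here. Leaving out replicate 3 of the KCL-HO-1i/5-FU group lowered its count at an unadjusted p under 0.05 to 6. Leaving out replicate 2 of the gemcitabine combination lowered its count to 8, and the count of KCL-HO-1i alone was 3 when its replicate 3 was left out. These 3 libraries all carry code 70, and with all 4 libraries of that code left out the counts were 8 with KCL-HO-1i, 6 with KCL-HO-1i/5-FU and 10 in the gemcitabine combination, against 7.48%, 4.5% and 7.11% of all genes higher. The treated groups are smaller in that fit, and the KCL-HO-1i group loses both its replicates 2 and 3. Lower counts there cannot be told apart from the loss of libraries. For the fits without 1 library the shares of all genes are not given here, so members are not compared with other genes there. The libraries of 2 members (Mmp3 and Mmp23) lay wholly above vehicle with KCL-HO-1i, against 0.747% of all genes. Those of 4 did so with KCL-HO-1i/5-FU (Mmp11, Mmp13, Adamts5 and Timp3), against 1.53%, and those of 1, Mmp11, in the gemcitabine combination, against 2.2%. After 5-FU alone or gemcitabine alone 0 members lay wholly above vehicle, against 0.315% and 0.198% of all genes.

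Against the same chemotherapy without KCL-HO-1i, 8 members were higher and 1 lower in KCL-HO-1i/5-FU tumors at an unadjusted p under 0.05, against 6.18% and 5.26% of all genes. The lower member was Adamts18, at -3.34 ± 1.17 (edgeR adjusted p = 0.327), which includes the single high 5-FU tumor. In KCL-HO-1i/gemcitabine against gemcitabine 10 were higher and 0 lower, against 6.94% and 6.51%. No member and 0 of all tested genes passed an adjusted p of 0.05 in edgeR, while DESeq2 called 1 and 0 members and limma-voom 0 in both. With replicate 3 of KCL-HO-1i/5-FU left out the first count was 3 in all, and with replicate 2 of the gemcitabine combination left out the second was 2. The shares of all genes in those fits are not given here, so whether members fell more than other genes is not shown. Libraries of 5 members (Mmp11, Mmp13, Timp3, Adam1a and Adam28) lay wholly above 5-FU in the first comparison, against 0.937% of all genes, and those of 1, Mmp12, wholly above gemcitabine in the second, against 0.695%.

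Of 52 listed genes that act around these proteases, 45 were tested. In the KCL-HO-1i average 23 of these (51.1%) were higher and 2 lower at an unadjusted p under 0.05, against 13.7% and 9.22% of all tested genes, and 0 passed an adjusted p of 0.05 in edgeR. Among other matrix proteases 5 of 8 were higher, with the fibroblast protease Fap at 2.03 ± 0.55 and Htra1 at 1.84 ± 0.49 (SE). Both spread widely with KCL-HO-1i/5-FU, Fap from 1.02 to 72.0 CPM and Htra1 from 2.11 to 115. In vehicle tumors they ran from 0.528 to 2.35 and from 1.96 to 8.53 CPM. In the plasminogen system 2 of 5 were higher, the activators Plat at 1.19 ± 0.33 and Plau at 0.59 ± 0.24. Of 8 cathepsins and cystatins 6 were higher, among them the collagen-degrading Ctsk at 1.23 ± 0.38, and the cystatin Cst6 was lower at -1.57 ± 0.60. Of 16 genes that activate or restrain metalloproteases 5 were higher, including the MMP inhibitor Reck at 0.91 ± 0.25 and the clearance receptor Lrp1 at 1.20 ± 0.34, and Thbs1 was lower at -0.64 ± 0.29. The proprotein convertase Furin, which activates Mmp14 and ADAM proforms, was at -0.15 ± 0.11. Of 8 matrix substrates 5 were higher, such as decorin (Dcn) at 1.72 ± 0.54, which is also 1 of the fibroblast markers used here.

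Markers of other cell types moved with KCL-HO-1i as well. In the average, 7 of 8 fibroblast markers, 7 of 8 macrophage markers, 7 of 7 adipocyte markers and 8 of 8 skeletal muscle markers were higher at an unadjusted p under 0.05, as were 4 of 7 endothelial and 2 of 5 tested neutrophil markers. The adipocyte and muscle markers were not higher in every background. With KCL-HO-1i/5-FU against vehicle 0 of 7 adipocyte and 0 of 8 muscle markers were, and against 5-FU the median log2 difference of the muscle markers was -2.23. Of 7 luminal epithelial markers 0 were higher and 1 lower, and of 5 tested T cell markers 0 were higher or lower. The summed CPM of 8 fibroblast markers ran from 198 to 1115 in vehicle tumors, 540 to 1434 with 5-FU, 429 to 3776 with gemcitabine, 486 to 4079 with KCL-HO-1i, 226 to 6897 with KCL-HO-1i/5-FU and 787 to 13390 with KCL-HO-1i/gemcitabine. Summed macrophage markers ran from 72.6 to 305 CPM in vehicle tumors, from 174 to 478 with 5-FU, from 127 to 614 with gemcitabine and from 285 to 780 over the 3 groups with KCL-HO-1i. None of the 8 macrophage markers (0 of 8) was higher when KCL-HO-1i/5-FU was set against 5-FU. Summed muscle markers ran from 1.96 to 37.8 CPM in vehicle tumors and reached 10753 with KCL-HO-1i/gemcitabine, but at most 49.1 with KCL-HO-1i/5-FU. With the fibroblast score as a covariate, an alternative added after the data were seen, 9 of the 47 members were higher at an unadjusted p under 0.05 in the average and 0 lower, against 4.23% and 2.59% of all genes in that fit, and 0 passed an adjusted one in edgeR. In that fit Mmp3 was at 1.60 (edgeR adjusted p = 0.418), Mmp13 at 1.39, Mmp2 at 0.81, Mmp19 at 0.31 and Mmp23 at 0.03.

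The 29 members chosen by name or by p were then set against 10 marker scores over the 30 libraries, as Pearson's r of log2 CPM with permutation p values adjusted over 290 pairs. Of these, 128 pairs had an adjusted p under 0.05. With the fibroblast score, 19 members correlated, all positively, and 15 did so within groups. Mmp23 had r = 0.93 (Spearman's rho 0.89), Mmp2 0.90 (0.89), Adamts2 0.90 (0.88), Mmp19 0.90 (0.94), Adam19 0.87 (0.85), Adamts5 0.86 (0.85), Mmp3 0.85 (0.82) and Timp1 0.81 (0.82), each with a permutation p of 1e-05 for both, the smallest that 100000 draws can give. Their adjusted permutation p values were 8.29e-05 for r and 0.000121 for rho. Without the 2 libraries farthest from the median score, r was 0.79 to 0.89 for these 8 genes. Of the 29 members, 19 also correlated with the macrophage score and 22 with the endothelial score at an adjusted p under 0.05, all positively. The neutrophil score gave 19 as well, all positive. Within groups 17 did so with neutrophils, 15 with macrophages and 19 with endothelium. For the basal and myoepithelial score there were 15 (14 positive), for adipocytes 13 (all positive) and for skeletal muscle 10 (9 positive). The luminal score gave 8 (1 positive), T cells 2 (both positive) and epidermis 1 (negative). How many of all tested genes correlated with these scores is not given here. The counts therefore do not show that the members followed the scores more than other genes.

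**Figure D4:**
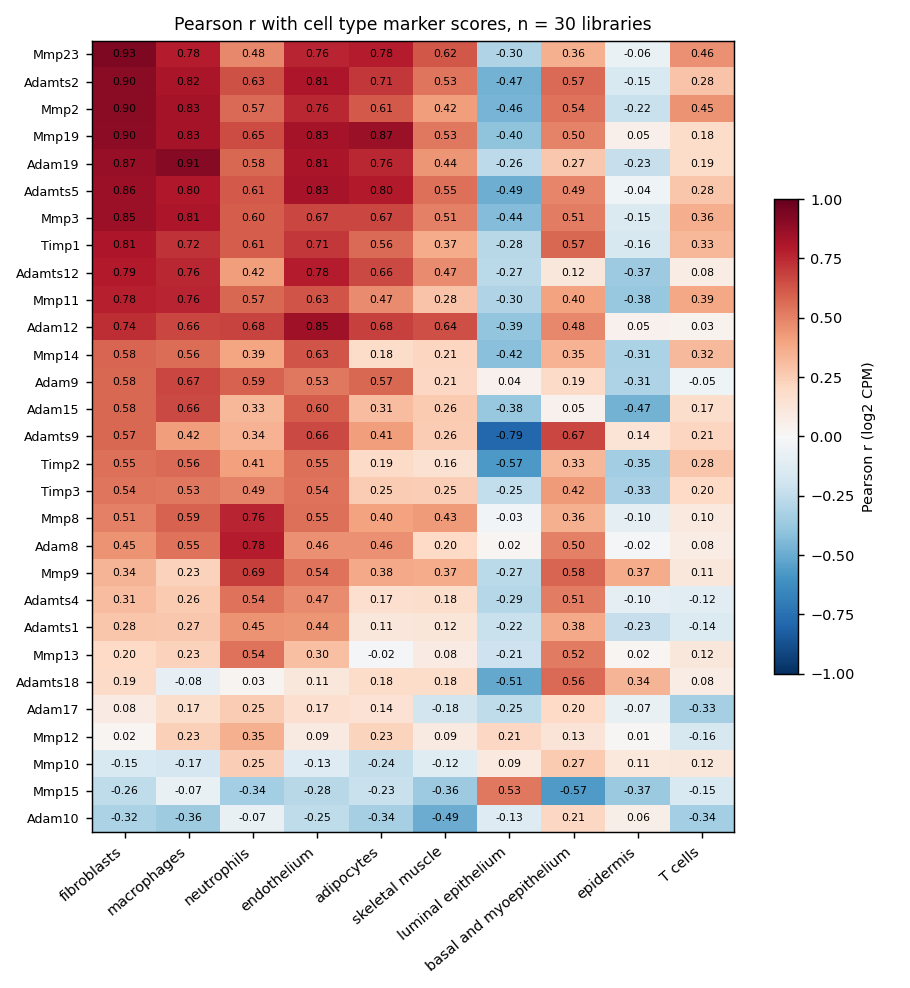
Pearson's r over 30 libraries between the log2 CPM of 29 members (rows, ordered by r with the fibroblast score) and 10 cell type marker scores (columns), printed in each cell. The upper rows are red for fibroblasts, macrophages and endothelium, Mmp8, Adam8 and Mmp9 are highest with neutrophils, and Mmp15 is positive with luminal epithelium at 0.53.

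Values for single members were as follows. Mmp8, Adam8 and Mmp9 correlated with the neutrophil score at r = 0.76, 0.78 and 0.69 (rho 0.70, 0.72 and 0.65), with adjusted permutation p values for r of 8.29e-05, 8.29e-05 and 0.000387, and r = 0.70, 0.66 and 0.57 without the 2 libraries farthest from the median. Mmp15 correlated with the luminal score at r = 0.53 (rho 0.42, adjusted permutation p = 0.00688 for r and 0.0624 for rho; 0.42 without 2 libraries). Mmp13 had r = 0.20 with the fibroblast score (adjusted permutation p = 0.390) and 0.54 with the neutrophil score (rho 0.44, adjusted permutation p = 0.00750 for r and 0.0466 for rho). The latter was 0.27 without 2 libraries and 0.57 within groups (adjusted permutation p = 0.0201). With the basal and myoepithelial score Mmp13 had r = 0.52 (rho 0.47, adjusted permutation p = 0.00833 for r and 0.0296 for rho; 0.45 without 2 libraries). Mmp12 had r = 0.23 with the macrophage score (rho 0.27, adjusted permutation p = 0.303 for r and 0.263 for rho). With the fibroblast score Adam10 had r = -0.32 (rho -0.26, adjusted permutation p = 0.157 for r) and Adam17 r = 0.08 (rho 0.12, adjusted permutation p = 0.729 for r).

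Pairs of members, only some of which act on each other, were compared in the same way, with 14 pairs in all. Mmp2 and Mmp3 had r = 0.92 (rho 0.90; 0.93 without 2 libraries, adjusted permutation p = 4.67e-05 for r and 7e-05 for rho). Mmp14, Timp2 and Mmp2, which form the complex in which pro-MMP2 is activated, had r = 0.72 for Mmp14 with Mmp2, 0.72 for Timp2 with Mmp2 and 0.71 for Timp2 with Mmp14 (rho 0.56, 0.60 and 0.43). These were 0.62, 0.60 and 0.56 without 2 libraries and 0.70, 0.62 and 0.62 within groups, with adjusted permutation p values for r of 5.6e-05, 5.6e-05 and 6e-05. Other inhibitor pairs varied. Timp3 had r = 0.27 with Adam17 (adjusted permutation p = 0.157), 0.47 with Adamts5 (0.33 without 2 libraries) and 0.74 with Adamts4 (0.84 without 2 libraries). Timp1 and Mmp9 had r = 0.47 (adjusted permutation p = 0.0127), and 0.26 without 2 libraries. Of neighbors in the genome, Mmp3 and Mmp12 had r = 0.05 (adjusted permutation p = 0.787) and Mmp3 and Mmp13 0.40 (rho 0.25, adjusted permutation p = 0.0377 for r and 0.219 for rho; 0.25 without 2 libraries). Adamts1 and Adamts5 had r = 0.36 (adjusted permutation p = 0.0588). The libraries share tissue composition and normalization, and these values describe the 30 tumors.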

How the data were processed

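Tumor RNA was extracted with the RNeasy Mini Kit and libraries were made with a directional kit. Per the labels, the submitters' processing notes name FastQC 0.11.9, STAR 2.7.9a, Salmon 1.9.0, DESeq2 and the build mm10. The deposited values are estimated counts per gene made by the authors, unnormalized, of which 38.0% are not whole; they were rounded here. How reads on a strand were counted is not given in the sources used here.

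edgeR 4.0.16 (R 4.3.3) was run on all 30 libraries with TMM scaling, a filter by expression (minimum count 10), 6 group means and robust quasi-likelihood tests, with Benjamini-Hochberg adjustment over 13663 genes. SE was the fold change divided by the root of F. CPM used TMM-scaled library sizes. The fit was tested on simulated data. Alternatives were RLE scaling, DESeq2 1.42.0, limma-voom 3.58.1 with quality weights, leaving the filter out or raising it to a mean of 50 counts, a replicate block, the number code, only the groups compared, and leaving out each library; a fibroblast score covariate and leaving out code 70 were added after seeing the data. Correlations used 100000 permutations. Promoters, gene positions and sequences came from RefSeq GRCm38.p6; all 79 members had a position.

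Fixed names were described whatever their values, with up to 3 members per direction and comparison by the smallest p. Members and lists were chosen with earlier results of these data known. Libraries differed from each other beyond sampling noise. Groups come from the labels; whether tumors with 1 code share a litter or cage is not given, and p values measure only the spread between these samples.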

Additional observations from a re-analysis of the deposited data

Results flagged for a closer look

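Of 174 groups of 5 libraries tested for the 29 named members, 11 held 1 library farther from the others than the 95% limit of Dixon's test on the log2 CPM scale; chance flags about 1 in 20. KCL-HO-1i/5-FU replicate 3 stood apart for 4 members: high for Mmp13 at 7.58 (191 CPM, the next at 26.5), Timp3 at 8.10 (274 CPM, the next at 63.1) and Adamts5 at 5.06 (33.1 CPM, the next at 9.34), and low for Mmp15 at 7.18 (144 CPM, the next at 284).

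Adam12 was high in KCL-HO-1i/gemcitabine replicate 2 at 5.83 (56.8 CPM, the next at 8.32). In the gemcitabine group, Adamts4 was high in replicate 1 at 5.47 (44.2 CPM), Adamts5 was high in replicate 5 at 4.87 (29.1 CPM) and Adamts12 was low in replicate 3 at 1.94 (3.66 CPM). In the KCL-HO-1i group, Adam10 was high in replicate 1 at 7.84 (229 CPM, the next at 199) and Adamts18 was low in replicate 5 at -0.43 (0.577 CPM). Mmp10 was high in vehicle replicate 3 at 0.0605 (0.879 CPM), a library in which 3 counts, the bound of a 0, equal 0.264 CPM. The next vehicle library, at 0.0939 CPM, was under the level of 3 counts.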

How the results depend on the processing

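At an adjusted p under 0.05, members called in KCL-HO-1i/5-FU against vehicle were 0, but 6 by DESeq2, 2 by limma-voom and 0 to 3 without 1 library. In KCL-HO-1i/gemcitabine against vehicle they were 0, but 8 by DESeq2, 9 by limma-voom (1 of them lower) and 0 to 3 without 1 library. In the KCL-HO-1i average they were 0, but 12 by DESeq2, 1 by limma-voom and 0 to 12 without 1 library (12 without gemcitabine replicate 5). In KCL-HO-1i/5-FU against 5-FU DESeq2 called 1, and among the 6 groups (1 called) DESeq2 called 7, limma-voom 0, the fit with the number code 0, and leaving out 1 library gave 0 to 3.

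At an unadjusted p under 0.05, the members counted after 5-FU (1) were 3 by limma-voom, 0 with a mean of at least 50 counts, 5 with only the groups compared and 1 to 2 without 1 library. After gemcitabine (0) they were 2 by DESeq2, 2 by limma-voom, 1 without a filter, 1 with the number code, 1 with only the groups compared and 0 to 2 without 1 library. The number code gave 0 for KCL-HO-1i (9; 3 to 11 without 1 library), 2 for KCL-HO-1i/5-FU (17; 6 to 20), 4 for KCL-HO-1i/gemcitabine (18; 8 to 20), 10 for the average (20; 16 to 23) and 7 among the 6 groups (13; 9 to 16). limma-voom gave 11 for KCL-HO-1i/5-FU against vehicle and 5 against 5-FU (9; 3 to 11 without 1 library). With a mean of at least 50 counts only 30 members were tested. Of these, 13 were higher and 0 lower in the average, against 11.3% and 10.4% of all genes in that fit. That filter gave 1 of 30 for the dependence on chemotherapy (3, and 1 to 4 without 1 library), against 5.7% of all genes. The fibroblast score, chosen after seeing the data, gave 9 for the average. Only the groups compared gave 5 for KCL-HO-1i/gemcitabine against gemcitabine (10; 2 to 13). Members without overlap numbered 2 with RLE scaling in KCL-HO-1i/gemcitabine against vehicle (1), and without 1 library 0 to 4 for 5-FU, 0 to 2 for gemcitabine, 2 to 7 for KCL-HO-1i, 4 to 8 for KCL-HO-1i/5-FU and 1 to 10 for KCL-HO-1i/gemcitabine. With fewer libraries in a group, any gene can separate more easily. The shares of all genes without overlap in these settings are not given here, so a higher count is not a result about the members. The filter at a mean of at least 50 counts removed members as well as other genes, so its counts, including the 0 after 5-FU, are out of 30. With only the groups compared, 41 members were tested for 5-FU, 40 for gemcitabine and 42 for KCL-HO-1i/gemcitabine against gemcitabine. The cause of the other shifts was not tested. Apart from the shares printed here and above, the shares of all genes in these fits are not given. Where they are missing, a shift in the members is not set against the shift in other genes.

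With the 4 libraries of code 70 left out, also chosen after seeing the data, the members at an unadjusted p under 0.05 were 9 in the average, 6 with KCL-HO-1i/5-FU and 10 with KCL-HO-1i/gemcitabine against vehicle, 3 in each comparison with the same chemotherapy, 6 among the 6 groups and 1 for the dependence on chemotherapy, and 0 were called among the 6 groups at an adjusted p. The shares of all genes in that fit are given above only for the average and the comparisons with vehicle. The groups with KCL-HO-1i are smaller in that fit.

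The replicate numbers did not pair the libraries: residuals of same-numbered libraries correlated at 0.00284 on average over 75 pairs, from -0.583 to 0.480. The replicate block called 1 member at an adjusted p under 0.05 in KCL-HO-1i/5-FU against vehicle and 1 in the average. At an unadjusted p it counted 0 after 5-FU, 1 after gemcitabine, 6 in KCL-HO-1i/gemcitabine against gemcitabine, 7 among the 6 groups and 1 for the dependence on chemotherapy. The shares of all genes with the replicate block are not given here.

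For single genes, 1917 values kept their direction and their side of an unadjusted p of 0.05, 272 lost it, 28 gained it and 1 turned: Adam12 in KCL-HO-1i against vehicle was -0.53 with the number code. Genes under about 1 CPM, such as Mmp10, Mmp8, Adam22 and Adam28, rest on few counts, and their differences are the least certain.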
